A study of Sus scrofa with 23 samples.

Results

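Glucocorticoid-induced genes were followed in the Longissimus muscle of 23 pigs, 1 pig per single-colour array. The genes were FKBP5, CEBPD, TSC22D3, DDIT4, KLF9, SGK1, NR3C1 and CEBPB, 8 in all. They were chosen by name, with earlier results of these arrays known, and which of those results weighed in the choice was not recorded, so the group differences below are a description and support nothing further. Probes were members when their gene name was one of these symbols or their description held the symbol in parentheses. That rule found 17 of 43603 probes, in 4 of the 8 genes: 10 for KLF9, 3 for FKBP5, 3 for NR3C1 and 1 for CEBPB. A further 8 probes belong to members by gene ID (CEBPD, 1 probe, and DDIT4, 2), by the protein name in the description (TSC22D3, 2) or by a described likeness to the human protein (CEBPB, 3). They are given beside the others and kept apart in the counts. No SGK1 probe was found by any of these routes, and SGK1 was not analysed here. All 17 and all 8 probes passed the filter on dim signals.

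The pigs came from lines divergent for residual feed intake (RFI), the feed an animal eats beyond what its maintenance and growth predict, and were sampled at a body weight of 115 kg. RFIneg pigs (n = 7) were low-RFI animals with free access to feed. RFIplR pigs (n = 8) were high-RFI animals held to the feeding level of the low-RFI line. RFIpl pigs (n = 8) were high-RFI animals with free access to feed. Age, sex and the time from the last meal to sampling are not given in the labels used here. Since each line is a single line, its selection cannot be told apart from any other difference between the lines. Pigs are separate samples in the labels, so the spread between them is biological as well as technical.

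Glucocorticoids such as cortisol enter the cell and bind the glucocorticoid receptor NR3C1, which waits in a complex with HSP90 and its co-chaperones and then moves to the nucleus. Work mostly in human and mouse cells has shown that the receptor raises FKBP5, TSC22D3, DDIT4, KLF9, CEBPD, CEBPB and SGK1 in many tissues. FKBP5 in turn joins the receptor complex and lowers its affinity for hormone. In muscle the pathway is known for slowing protein synthesis and favouring protein breakdown during fasting and stress.

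FKBP5 had the widest group differences of the members. All 3 of its probes were lowest in RFIneg muscle, 2.31- to 2.54-fold lower than in RFIpl and 2.78- to 3.22-fold lower than in RFIplR, although the groups overlapped and no probe passed the threshold. TSC22D3 averaged highest in RFIplR at its bright probe, a direction that turned under another background correction, and DDIT4 and CEBPD averaged highest in RFIplR, where the same pig was the highest for both. The receptor NR3C1 differed by at most 0.29 on the log2 scale between groups. Within groups, 6 of 21 pairs of members were correlated over the pigs, 4 of them with CEBPB at a dim probe. Without the arrays of slide 3, 0 pairs passed.

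The 3 FKBP5 probes carry the widest difference, so their sequences are shown. They lie at bases 614, 797 and 979 of the same transcript record, share at most 7 consecutive bases, and thus sample the transcript at separate places. The array files give no genome position for them ("unmapped"), and each is printed 5′ to 3′ as in the array's design.
FKBP5 614: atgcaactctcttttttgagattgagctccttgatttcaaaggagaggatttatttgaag
FKBP5 797: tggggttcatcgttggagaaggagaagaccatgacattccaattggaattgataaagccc
FKBP5 979: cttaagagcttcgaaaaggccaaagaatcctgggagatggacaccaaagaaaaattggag
Of the other genes found by symbol, 1 probe each is shown to identify the transcripts that a CEBPB, a KLF9 and an NR3C1 probe recognise.
CEBPB 360: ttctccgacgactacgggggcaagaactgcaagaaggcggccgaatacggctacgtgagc
KLF9 453: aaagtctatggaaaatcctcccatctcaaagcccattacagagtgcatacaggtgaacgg
NR3C1 2007: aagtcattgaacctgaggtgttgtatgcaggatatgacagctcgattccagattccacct

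Levels are log2 processed signals minus the array's 75th percentile, so 0 is the signal at that percentile, and differences are differences of group means on this log2 scale, with 95% intervals from limma. Arrays had between 41.6% and 79.0% of spots well above background, with a median of 69.3%, and the 4 arrays of slide 3 had 41.6% to 58.8%, with a median of 50.1%. Every slide held all 3 groups. Between arrays, levels correlated with r from 0.967 to 0.990. The defining markers of skeletal muscle were the brightest of the marker lists, with a mean level of 9.13 to 9.68 in every pig, which fits the labelled tissue. Because probes bind with different strength, a gap in level between probes does not measure a gap in RNA amount. Group differences of bright probes depended on the background correction: over the 5720 probes with a mean level above 2, the median of RFIplR minus RFIpl was 0.07 with the scanner's own correction and -0.70 with normexp, and that of RFIneg minus RFIplR was -0.01 and 0.53. The median of RFIneg minus RFIpl was 0.06 and -0.15 in the same order. Of the 75 member differences, 30 turned sign under normexp, none of them of FKBP5.

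Among all 27788 probes tested, limma with Benjamini-Hochberg adjustment called 0.122% in RFIneg minus RFIpl (34 probes), 0.0036% in RFIplR minus RFIpl (1 probe) and 0.162% in RFIneg minus RFIplR (45 probes) at an adjusted p of 0.05. It called 0 of the 17 members in each comparison, and 0 of the 8 further probes. At an unadjusted p of 0.05 the members counted 3 of 17 in RFIneg minus RFIpl (background 11.1%), 0 of 17 in RFIplR minus RFIpl (9.76%) and 5 of 17 in RFIneg minus RFIplR (10.2%). The 8 further probes counted 0, 1 and 3 in the same order of comparisons. All 3 of the first count, and 3 of the 5, are FKBP5 probes, which report the same transcript. Adjusted p ranged from 0.17 to 0.99 over all members and comparisons, and an adjusted p above the threshold does not show that the groups are alike.

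**Figure D1:**
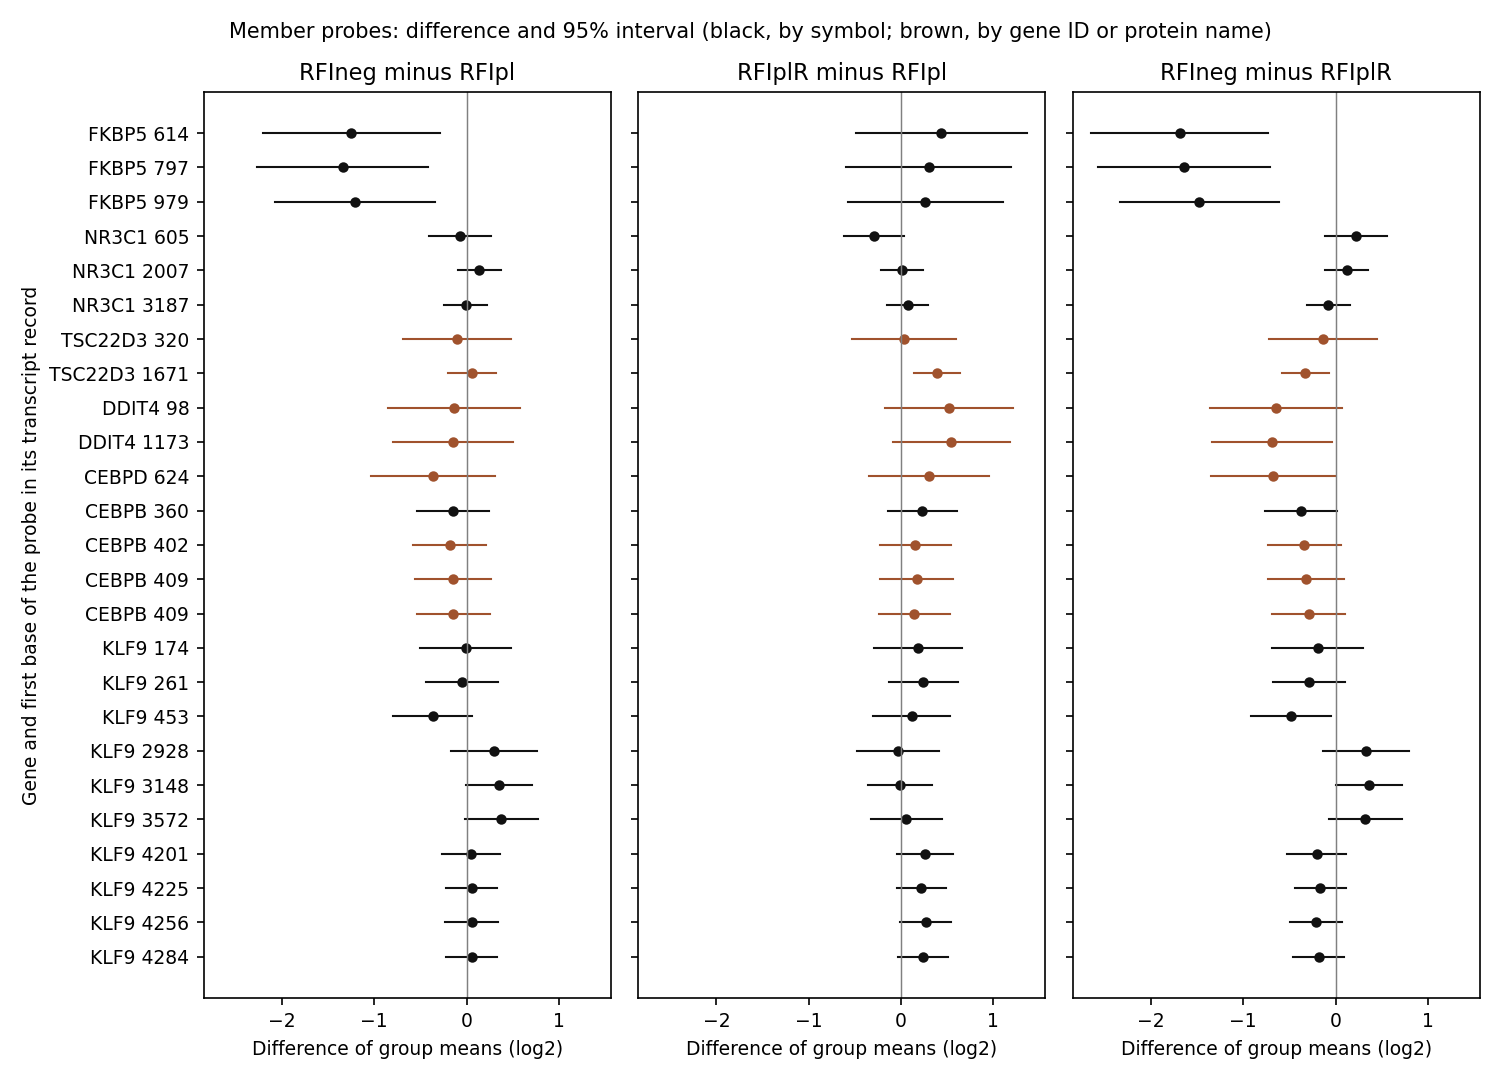
Difference of group means on the log2 scale (x axis) for each member probe (y axis, gene and first base of the probe in its transcript record), with the limma 95% interval as a line. Black marks probes found by symbol and brown those found by gene ID or protein description. The FKBP5 intervals lie below 0 in both comparisons with RFIneg, and the differences of the other genes sit nearer 0 there. In RFIneg minus RFIplR the intervals of TSC22D3 1671, DDIT4 1173, CEBPD 624 and KLF9 453 also lie below 0. That of KLF9 3148 lies above 0 there, as does that of TSC22D3 1671 in RFIplR minus RFIpl.

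The receptor itself, NR3C1, was measured by 3 probes. At the brightest, at base 3187, the lowest, median and highest levels were 2.33, 2.74 and 2.85 in RFIneg, 2.43, 2.77 and 3.02 in RFIplR, and 2.25, 2.77 and 3.01 in RFIpl. The groups covered nearly the same range, and RFIneg differed from RFIpl by -0.01 (95% interval -0.24 to 0.23). The probe at base 2007 gave 0.14 (-0.10 to 0.37) and the probe at base 605 gave -0.07 (-0.41 to 0.27) for the same comparison. For RFIplR minus RFIpl the widest difference was that of the probe at 605, -0.29 (-0.62 to 0.04), a probe for which the slide accounted for 63.2% of the variance against a median of 29.0% over all probes. The within-group SD was 0.21 at bases 2007 and 3187, at percentiles 24.5 and 24.6 of all tested probes, and 0.32 at base 605, at percentile 54.4. With normexp background correction the probe at 3187 gave -0.60 for RFIplR minus RFIpl, near the -0.70 of all bright probes. The 3 probes did not track each other closely within groups, with r of 0.11 to 0.44 over 23 pigs.

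FKBP5, the co-chaperone that damps receptor activity, varied strongly from pig to pig. At base 979, its brightest probe, RFIneg muscle had a lowest, median and highest level of -2.49, -1.92 and -0.97. RFIplR muscle had -2.60, -0.21 and 0.48, and RFIpl muscle had -1.74, -1.02 and 0.93. RFIneg pigs thus lay at the low end, but RFIplR replicate 5 was as low as any of them, and the ranges overlapped. The mean was -1.97 ± 0.54 in RFIneg (SD, n = 7), -0.49 ± 1.03 in RFIplR (SD, n = 8) and -0.76 ± 0.90 in RFIpl (SD, n = 8). RFIneg minus RFIpl came to -1.21 (95% interval -2.07 to -0.34, adjusted p = 0.27) and RFIneg minus RFIplR to -1.47 (-2.34 to -0.61, adjusted p = 0.19). RFIplR minus RFIpl was 0.26 (-0.57 to 1.10), an interval that holds 0.

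The other FKBP5 probes gave the same picture. At base 614 the lowest, median and highest levels were -3.66, -2.63 and -1.34 in RFIneg, -2.94, -0.89 and -0.07 in RFIplR, and -2.84, -1.70 and 0.19 in RFIpl. At base 797 they were -3.59, -2.76 and -1.66 in RFIneg, -3.32, -0.99 and -0.24 in RFIplR, and -2.73, -1.90 and 0.24 in RFIpl. RFIneg replicate 3 was the highest pig of its group at each probe, and replicate 5 was the lowest pig of its group in RFIneg, RFIplR and RFIpl alike. RFIneg minus RFIpl was -1.25 at base 614 and -1.34 at base 797. RFIneg minus RFIplR was -1.69 at base 614 and -1.64 at base 797. Within groups the probes rose and fell together, with r of 0.97 to 0.98, so they count as 1 measurement of 1 transcript. The probes at 614 and 797 were not well above background in 1 RFIneg pig.

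**Figure D2:**
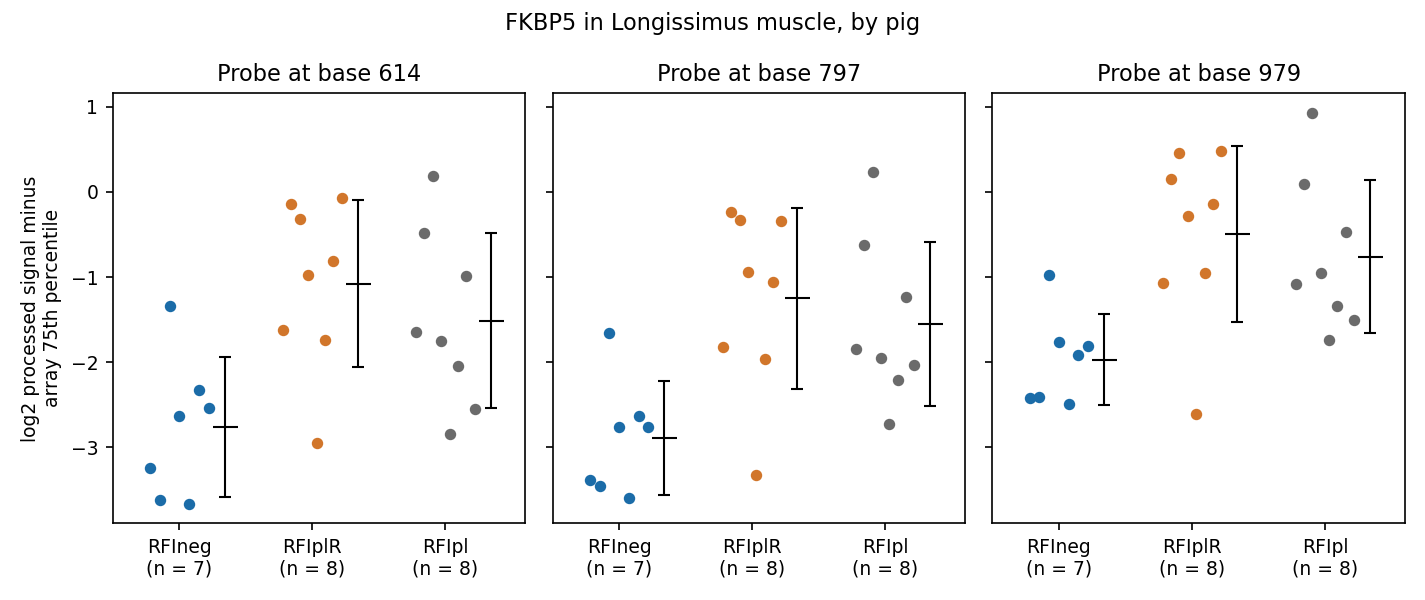
FKBP5 level (y axis, log2 processed signal minus the array's 75th percentile) in each pig by group (x axis) at its 3 probes; black bars show the mean and SD. RFIneg pigs reach at most -0.97 at base 979, while RFIplR pigs reach 0.48 and RFIpl pigs 0.93, with overlap between the groups.

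The lower FKBP5 level of RFIneg pigs held on both scan days. At base 979 RFIneg minus RFIpl was -0.94 on the first scan day and -1.497 on the second, and RFIneg minus RFIplR was -1.58 and -1.39. With slide as a block, RFIneg minus RFIpl was -1.08 (adjusted p = 0.33) and RFIneg minus RFIplR was -1.52 (adjusted p = 0.21). At base 979 RFIneg lay below RFIpl on 6 of 6 slides and below RFIplR on 5 of 6, with few pigs of a group per slide. At base 614 it lay below each of them on 5 of 6. RFIplR minus RFIpl changed sign between the days, at 0.64 and -0.11. Normexp background correction kept the sign but gave smaller values, -0.71 to -0.46 over the 3 probes for RFIneg minus RFIpl and -1.11 to -0.97 for RFIneg minus RFIplR. FKBP5 was also among the most variable transcripts, with a within-group SD of 0.86 to 0.95, in the 97.6th percentile or above of all tested probes. A single pig weighed on the call. Without RFIplR replicate 5, RFIneg minus RFIplR was -1.77 at base 979 (limma adjusted p = 0.037) and -1.94 at base 797 (adjusted p = 0.041), both past the threshold. At base 614 it was -1.95 (adjusted p = 0.059). These were the lowest adjusted p of the 23 fits that each left out 1 pig. The highest limma adjusted p of those fits was 0.39 at base 979 and 0.36 at bases 614 and 797.

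Markers of other cell types were measured in the same comparisons, and 0 of them passed the threshold. In RFIneg minus RFIpl, 11 of 11 measured adipocyte markers had a lower mean in RFIneg (median -0.53), 7 of 8 leukocyte markers did (median -0.28) and 5 of 7 fibroblast markers did (median -0.21), whereas 11 of 11 skeletal muscle markers had a higher mean in RFIneg (median 0.15). Of 6 measured endothelial markers, 4 had a lower mean in RFIneg in this comparison (median -0.18). Nearest the threshold were 2 fibroblast markers in RFIneg minus RFIpl, FN1 at -0.69 (limma adjusted p = 0.12) and FBN1 at -0.60 (adjusted p = 0.14). Of the 7 fibroblast markers, 2 had a higher mean in RFIneg there. Over all 3709 named genes the median was 0.03, and 56.2% had a higher mean in RFIneg. Muscle markers are bright, and differences of bright probes depended on the background correction. In RFIneg minus RFIplR, 9 of 11 adipocyte markers (median -0.35), 5 of 8 leukocyte markers (median -0.12) and 2 of 7 fibroblast markers (median 0.02) had a lower mean in RFIneg, and 10 of 11 muscle markers a higher one (median 0.07). Endothelial markers were lower in 3 of 6 (median -0.01), and 52.8% of all named genes had a higher mean in RFIneg. The mean adipocyte marker level ran from 0.23 to 1.63 in RFIneg pigs, from 0.35 to 2.03 in RFIplR pigs and from 0.04 to 2.68 in RFIpl pigs. Leukocyte markers ran from -2.06 to -1.35 in RFIneg, -2.20 to -0.83 in RFIplR and -1.71 to -0.73 in RFIpl. The part of these cells in the FKBP5 difference was not tested, and in whole muscle fewer cells of a type and less RNA per cell cannot be told apart.

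TSC22D3, also called GILZ, is a leucine zipper protein through which glucocorticoids restrain inflammatory signalling. At base 1671, a bright probe, the lowest, median and highest levels were 2.83, 3.08 and 3.13 in RFIneg, 2.83, 3.41 and 3.73 in RFIplR, and 2.58, 3.04 and 3.25 in RFIpl. Most RFIplR pigs lay above the other groups' ranges, but RFIplR replicates 4 and 5 lay within them. RFIplR minus RFIpl was 0.39 (95% interval 0.14 to 0.64, adjusted p = 0.23) and RFIneg minus RFIplR was -0.33 (-0.58 to -0.07, adjusted p = 0.37), while RFIneg and RFIpl differed by 0.06 (-0.20 to 0.32). The sign of RFIplR minus RFIpl was the same on both scan days, 0.54 on the first and 0.23 on the second. With normexp background correction it turned to -0.30, and RFIneg minus RFIplR to 0.20. Whether other TSC22D3 transcripts shared the pattern could not be seen, since the second probe, at base 320 of another transcript record, was dim, with a mean level of -3.16, and followed the first with r of only 0.32.

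DDIT4, also called REDD1, holds back the growth kinase complex mTORC1. At base 1173 the lowest, median and highest levels were 1.10, 1.90 and 2.39 in RFIneg, 1.51, 2.66 and 4.46 in RFIplR, and 1.48, 2.02 and 2.47 in RFIpl. RFIplR held both pigs as low as the other groups and pigs above them, with replicate 8 the highest. Its SD was 0.96, against 0.43 in RFIneg and 0.34 in RFIpl. RFIplR minus RFIpl was 0.55 (95% interval -0.08 to 1.18) and RFIneg minus RFIplR was -0.69 (-1.34 to -0.04, adjusted p = 0.46). Without RFIplR replicate 8 the values were 0.28 and -0.43, and with normexp 0.02 and -0.24. The first of these rested on 1 scan day, at 1.18 on the first and -0.09 on the second. The probe at base 98 followed the other with r = 0.98 and gave 0.52 for RFIplR minus RFIpl and -0.65 for RFIneg minus RFIplR. With normexp this probe did not shrink as the one at base 1173 did, and gave 0.74 and -0.63.

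CEBPD and CEBPB are basic leucine zipper transcription factors that glucocorticoids raise early, and both take part in fat cell formation and acute-phase responses. CEBPD had lowest, median and highest levels of -0.30, 0.17 and 0.59 in RFIneg, -0.25, 0.67 and 2.72 in RFIplR, and -0.01, 0.62 and 1.503 in RFIpl. The RFIneg pigs were bunched at the low end and RFIplR replicate 8 stood highest. RFIneg minus RFIplR was -0.67 (95% interval -1.35 to -0.00, adjusted p = 0.49) and RFIneg minus RFIpl was -0.37 (-1.04 to 0.31). Without RFIplR replicate 8, RFIneg minus RFIplR was -0.41 and RFIplR minus RFIpl was 0.04, against 0.31 with that pig. With all pigs, RFIplR minus RFIpl was 0.59 on the first scan day and 0.02 on the second. RFIneg minus RFIplR was -0.85 and -0.48 in the same order.

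CEBPB was measured by a dim probe at base 360 of its reference transcript, with lowest, median and highest levels of -3.10, -2.73 and -2.06 in RFIneg, -2.68, -2.39 and -1.48 in RFIplR, and -3.29, -2.49 and -1.95 in RFIpl. The groups overlapped widely, and RFIneg minus RFIplR was -0.38 (95% interval -0.76 to 0.01). The 3 further probes lie on an assembled record described as like the human CEBPB protein. Their mean levels were 3.30 to 3.80, and RFIneg minus RFIplR was -0.34 to -0.29 at these. They followed the dim probe with r of 0.85 to 0.88, so these probes and the dim one rose and fell in the same pigs. The 3 share 29 to 46 consecutive bases with each other and are not separate measurements. Under normexp background correction RFIneg minus RFIplR turned positive at these 3 probes and kept its sign at the dim one.

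**Figure D3:**
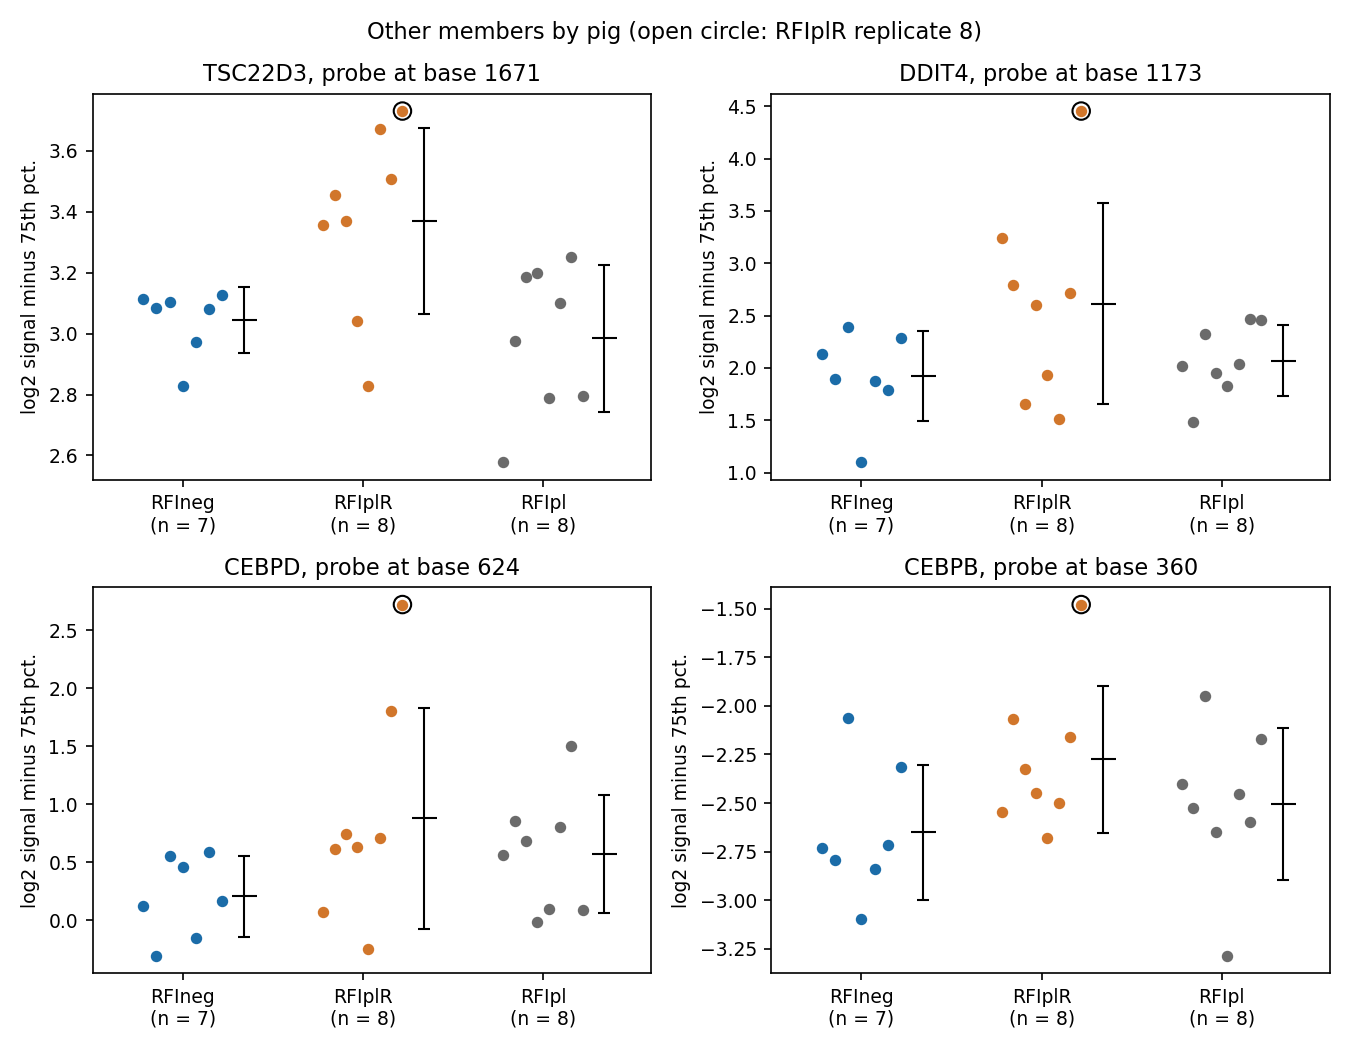
Level (y axis, log2 processed signal minus the array's 75th percentile) of TSC22D3, DDIT4, CEBPD and CEBPB in each pig by group (x axis), with mean and SD bars; the open circle marks RFIplR replicate 8, the highest RFIplR pig in all 4 panels. Without that pig the DDIT4 difference between RFIplR and RFIpl is 0.28.

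KLF9 is a zinc finger repressor that glucocorticoids raise and that is also tied to the daily clock. Its 7 probes at bases 2928 to 4284 lie on 1 long transcript record, and the 3 at bases 174, 261 and 453 on other, shorter records. At base 4225, the brightest, the lowest, median and highest levels were 3.52, 3.82 and 4.05 in RFIneg, 3.51, 3.93 and 4.46 in RFIplR, and 3.23, 3.80 and 4.02 in RFIpl. The groups overlapped almost wholly, and RFIneg minus RFIpl was 0.06 (95% interval -0.22 to 0.33). RFIplR minus RFIpl was 0.22 (-0.05 to 0.49).

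The probes along the long KLF9 record did not behave alike. At the 3 upstream probes, at bases 2928, 3148 and 3572, RFIneg minus RFIpl was 0.30, 0.35 and 0.38, and RFIplR minus RFIpl was -0.03, -0.02 and 0.06. At the 4 downstream probes, at bases 4201 to 4284, RFIneg minus RFIpl was 0.05 or 0.06 at each, and RFIplR minus RFIpl lay between 0.22 and 0.27. These values depended on the scan day. Upstream, RFIneg minus RFIpl was 0.55 to 0.57 on the first day and -0.07 to 0.13 on the second. Downstream, it was 0.21 to 0.25 and -0.20 to -0.14, and RFIplR minus RFIpl was 0.47 to 0.52 and -0.07 to 0.01. Under normexp the downstream values of RFIplR minus RFIpl turned to between -0.61 and -0.45, and the upstream ones were -0.64 to -0.21. The downstream probes overlap by 26 to 37 bases with their neighbours. The mean of the upstream probes minus the mean of the downstream ones, taken within each pig, was -1.73 at the lowest, -0.98 at the median and -0.76 at the highest in RFIneg. It was -1.86, -1.73 and -1.57 in RFIplR, and -1.65, -1.44 and -1.33 in RFIpl. Its mean was -1.18 in RFIneg, -1.71 in RFIplR and -1.47 in RFIpl. The pigs of a group differed more in RFIneg, with an SD of 0.41, than in RFIplR, with 0.10, or RFIpl, with 0.13. The split into upstream and downstream probes was made after their values were seen and was not tested. Upstream probes correlated with each other within groups at r of 0.89 to 0.95, and downstream probes at 0.88 to 0.99, whereas r between an upstream and a downstream probe was 0.50 to 0.83. Of the short-record probes, all dim with mean levels of -2.90 to -2.29, that at base 453 gave RFIneg minus RFIplR of -0.48 (95% interval -0.91 to -0.05, adjusted p = 0.43).

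**Figure D4:**
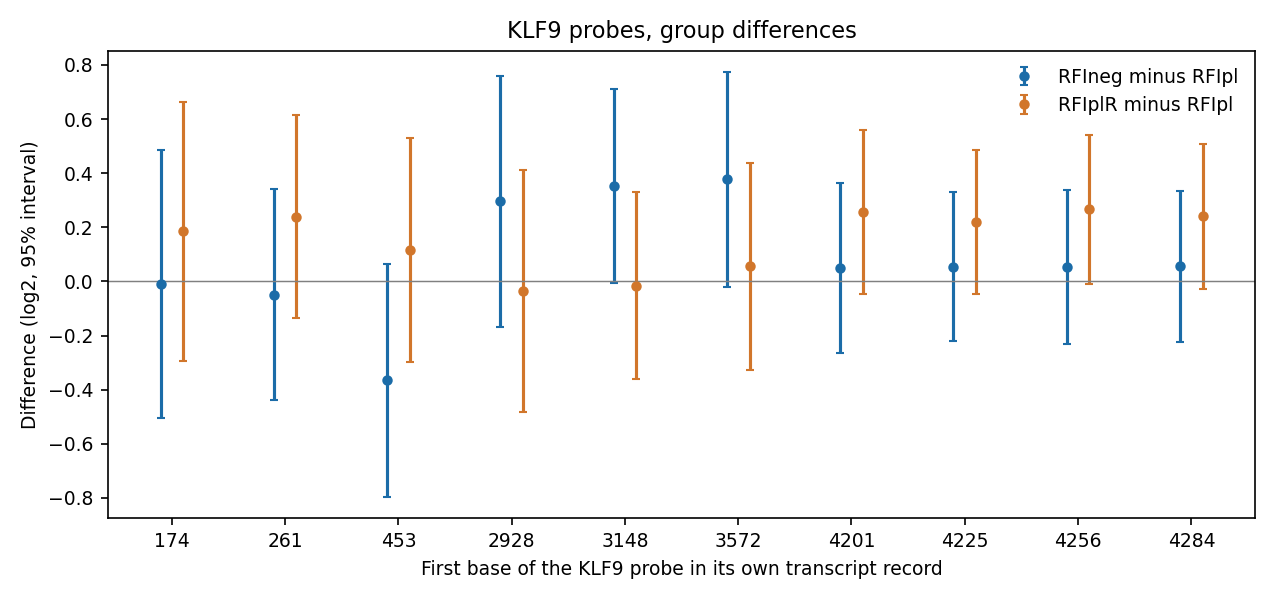
Difference of group means on the log2 scale (y axis, with 95% intervals) for the 10 KLF9 probes, ordered by their first base in their own transcript record (x axis, not to scale). Blue is RFIneg minus RFIpl and orange RFIplR minus RFIpl; the probes at 2928, 3148 and 3572 have blue above orange and those from 4201 on have orange above blue.

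The members' levels were next compared within groups, after each group's mean was subtracted, which leaves out the group differences. The brightest probe by the rule stood for each gene, or the brightest by gene ID or protein name where the rule had none. For CEBPB this was the dim probe at base 360, with a mean level of -2.47. It was well above background on 20 of 23 arrays, and the arrays where it was not were all of slide 3. No r between the brighter CEBPB probes and the other members is given here. Of 21 pairs over 23 pigs, 19 had a positive r, and 6 passed an adjusted p of 0.05 in a two-sided permutation test that shuffled pigs within groups, with Benjamini-Hochberg adjustment over the 21 pairs. The closest pair was CEBPB and KLF9 (r = 0.75, rho = 0.67, permutation p = 0.00012, adjusted p = 0.0025). DDIT4 with KLF9 (r = 0.70, rho = 0.66) and CEBPB with DDIT4 (r = 0.65, rho = 0.56) each had a permutation adjusted p of 0.0054. CEBPB and FKBP5 followed (r = 0.63, rho = 0.60, permutation p = 0.0036, adjusted p = 0.019), then CEBPD and FKBP5 (r = 0.61, rho = 0.64, permutation p = 0.0078, adjusted p = 0.033) and CEBPB and CEBPD (r = 0.55, rho = 0.52, permutation p = 0.0099, adjusted p = 0.035).

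The relations were recomputed without some pigs. RFIplR replicate 8 was the highest of its group for 6 of 7 members, and RFIplR replicate 5 the lowest for 4 of 7. Without the pigs farthest from the median of the first gene, 2 for each pair, CEBPB and KLF9 had r = 0.58, DDIT4 and KLF9 0.64, CEBPB and DDIT4 0.54 and CEBPB and FKBP5 0.57, all 4 with a permutation adjusted p of 0.039. CEBPD and FKBP5 had r = 0.46 (permutation adjusted p = 0.20) and CEBPB and CEBPD 0.32 (permutation adjusted p = 0.27), and neither passed without those pigs. Without RFIplR replicate 8 alone, CEBPD and FKBP5 had r = 0.60 (permutation adjusted p = 0.057) and CEBPB and CEBPD 0.33 (permutation adjusted p = 0.25). On the first scan day alone the 6 values of r ran from 0.54 to 0.84 and on the second from 0.14 to 0.75, and 0 pairs passed on either day. The pairs with r under 0.40 on the second day were CEBPB with CEBPD at 0.14 and CEBPB with KLF9 at 0.34. Without the 4 arrays of slide 3, which held RFIplR replicate 8, the 6 values ran from 0.28 to 0.66 and 0 pairs passed. With slide as well as group removed they ran from 0.59 to 0.82 and all 6 passed. The shuffles of that setting did not keep to slides, so its permutation p may be too small. For NR3C1 the r was -0.12 with FKBP5, -0.03 with CEBPD and at most 0.37, with KLF9, and 0 of its pairs passed. With slide removed as well, NR3C1 and KLF9 passed (r = 0.53, permutation adjusted p = 0.035), and with median centring NR3C1 passed with KLF9 (r = 0.54) and with TSC22D3 (r = 0.55), each at a permutation adjusted p of 0.023.

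**Figure D5:**
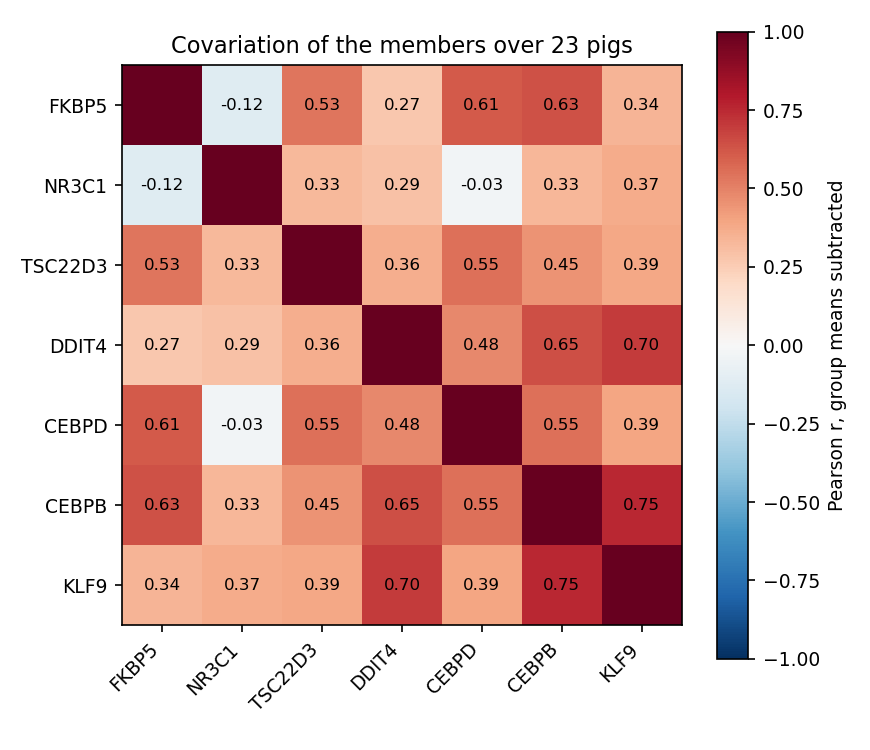
Pearson r between members over 23 pigs after the group means were subtracted (colour, with the value in each cell), on the log2 scale. CEBPB (dim probe at base 360), KLF9 and DDIT4 have the highest values, up to 0.75, and NR3C1 the lowest, down to -0.12 with FKBP5.

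The genes whose within-group pattern over the 23 pigs was most like each member were picked from 3703 named genes outside the list by Pearson r, as a description. For FKBP5 they were VPS72 (r = 0.75), ACKR1 (0.73) and CIART (0.73). CEBPD was nearest to ARID5B (0.86), YWHAH (0.84) and ETS2 (0.82), and TSC22D3 to ARID5B as well (0.76), then ATP1B1 (0.69) and TNFRSF1A (0.68). DDIT4 and KLF9 shared TRAFD1 (0.75 for DDIT4 and 0.63 for KLF9) and IP6K3 (0.71 for DDIT4 and 0.63 for KLF9), followed by GADD45A (0.62) for DDIT4 and CYP3A29 (0.61) for KLF9. CEBPB, at its dim probe at base 360, was nearest to AKR1B1 (0.75), SAMHD1 (0.70) and CIART (0.68). NR3C1 was nearest to genes that none of the others had, PGK1 (0.81), TMOD4 (0.75) and DEDD (0.74). With slide removed as well, these values stayed between 0.63 and 0.88.

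Of the machinery around the receptor, 10 of 14 listed genes were measured and 0 passed the threshold in any comparison, with 4 of 10 at an unadjusted p of 0.05 in RFIneg minus RFIpl (12.7% of all named genes), 3 of 10 in RFIneg minus RFIplR (10.1%) and 0 of 10 in RFIplR minus RFIpl (10.1%). The chaperone HSP90AA1, which keeps the receptor ready for hormone, differed by -0.41 (SE 0.13, adjusted p = 0.23) in RFIneg minus RFIpl. FKBP4, the co-chaperone that FKBP5 competes with, differed by -0.42 (SE 0.13, adjusted p = 0.24) in RFIneg minus RFIplR and by -0.32 in RFIneg minus RFIpl. PTGES3, the p23 co-chaperone, differed by -0.29 in RFIneg minus RFIplR (adjusted p = 0.40). The mineralocorticoid receptor NR3C2, which also binds cortisol, had a higher mean in RFIneg than in RFIpl, by 0.52 (SE 0.19, adjusted p = 0.30). The list's median difference was 0.06 in RFIneg minus RFIpl, against 0.03 over all named genes.

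Among other genes known to answer to glucocorticoids, 19 of 33 were measured and 0 passed the threshold. In RFIneg minus RFIpl 13 of 19 had a lower mean in RFIneg, with a median difference of -0.18, whereas 56.2% of all named genes had a higher mean there, with a median of 0.03. In RFIneg minus RFIplR 15 of 19 were lower (median -0.15, against 0.01), whereas 52.8% of all named genes were higher there. In RFIplR minus RFIpl 8 of 19 were lower (median 0.02, against 0.02). At the unadjusted p used for the receptor machinery, the list counted 1 of 19 in RFIneg minus RFIpl (5.3%, against 12.7% of all named genes). It counted 2 of 19 in RFIneg minus RFIplR (10.5%, against 10.1%) and 0 of 19 in RFIplR minus RFIpl (against 10.1%). The examples nearest the threshold pointed in different directions. FBXO32, the atrophy ubiquitin ligase also called atrogin-1, differed by 0.59 (SE 0.27, adjusted p = 0.42) in RFIneg minus RFIpl. MAOA, a monoamine oxidase, differed by -0.44 (SE 0.17, adjusted p = 0.36) and FOXO1, a transcription factor of the fasting response, by -0.43 (SE 0.18, adjusted p = 0.41) in RFIneg minus RFIplR. FOXO3 differed by 0.42 in RFIneg minus RFIplR.

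Of 22 relatives of the members, 13 were measured and 0 passed the threshold. FKBP3, an immunophilin of the FKBP5 family, differed by 0.22 (SE 0.09, adjusted p = 0.32) in RFIneg minus RFIpl, and the zinc finger factor KLF11 by 0.47 (adjusted p = 0.49). CEBPA, which is also a fat cell marker, differed by -0.87 (SE 0.42, adjusted p = 0.45) in RFIneg minus RFIpl. KLF2 differed by -0.59 (SE 0.27, adjusted p = 0.46) in RFIneg minus RFIplR.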

How the data were processed

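Each array was a single-colour Agilent scan of 1 pig's muscle RNA, labelled with Cy3 per the labels' protocols. The deposited scanner files, written by Feature Extraction 10.7.3.1 per the file headers, give intensity per spot, already background-subtracted and detrended in the processed signal. The authors also deposited log2 values, which differ from log2 of the processed signal by a constant per array. R 2.10.0 is named in the submitters' processing notes.

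Processed signals were taken to log2, less the array's 75th percentile over non-control spots. Outlier-flagged spots were set to missing (470 missing probe values among those tested) and spots of a probe were averaged. The filter asked for a signal well above background on 6 or more arrays of any group, which 27788 of 43603 probes met. A limma 3.58.1 fit (lmFit, eBayes) in R 4.3.3 took all 23 arrays and 3 groups together, with Benjamini-Hochberg adjustment over all kept probes and a threshold of 0.05. The number of arrays limits the precision. Alternatives covered scaling, background correction, filters, variance models, slide, scan day, replicate number and left-out pigs. Correlations used 100000 shuffles within groups. In simulated data on 27329 probes, with 100 probes changed by each size, the fit recovered 74 of those changed by 1 on the log2 scale and 35 of those changed by 0.5 for RFIneg minus RFIpl. The simulated noise was independent between probes and held no slide effect. The changed probes were drawn from all, so the recovery does not hold for probes as variable as those of FKBP5.

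Gene names came from the array's design and from RefSeq (Sscrofa11.1 table), which named 10960 probes. The genes named were all members with all their probes, and picks from 11 lists. The picks had the lowest p of their list over the 3 comparisons, 4 at most per list. They are given for the receptor machinery, other glucocorticoid-responsive genes, relatives and immediate early genes, and for the clock genes except NR1D1. Of the picks from the cell type marker lists, only FN1, FBN1 and CEBPA are given, and these lists appear mainly as counts and medians. The erythrocyte list, with 1 of 8 genes measured, is not given. Members and lists were chosen with earlier results of these data known. For each member the 3 named genes with the highest r are given. No genome or promoter sequence was used here.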

Additional observations from a re-analysis of the deposited data

Results flagged for a closer look

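Of 75 groups of member values examined, 3 held a pig far from the others by Dixon's criterion, and chance alone marks about 5% of groups. The KLF9 probe at base 174 was at -4.22 in RFIneg replicate 7, the lowest of that group, and at -4.03 in RFIpl replicate 5, the lowest of that one. The TSC22D3 probe at base 320 was at -4.12 in RFIpl replicate 5. All 3 values came from slide 3, whose arrays had a median of 50.1% of spots well above background against 69.3% over all arrays, and all 3 were not well above background on their array. The slide accounted for 58.6% of the variance of this KLF9 probe and for 51.6% of that of this TSC22D3 probe, against a median of 29.0% over all probes.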

How the results depend on the processing

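The count of member probes called stayed at 0 in all 3 comparisons under every alternative run, except in RFIneg minus RFIplR when single pigs were left out, where it ran from 0 to 2 (2 without RFIplR replicate 5). Of 2754 member values under an alternative, 2729 moved by less than the probe's within-group SD. That count cannot show stability, because many of these settings could not move a difference that far. Leaving out a pig moves its group's mean by only a fraction of the SD, and leaves differences between the other groups unchanged. Trend and robust variance, no filter on dim probes and fits of only the groups compared also leave each difference as it was. The other 25 values all came with normexp background correction, under which 30 of 75 member differences turned sign. For all probes, main counts were 34 in RFIneg minus RFIpl, 1 in RFIplR minus RFIpl and 45 in RFIneg minus RFIplR. In that order they were 0, 0 and 0 with normexp, 22, 0 and 18 without a filter on dim probes, 52, 0 and 76 with trend and robust variance, 19, 0 and 25 with slide as a fixed block, and 18, 0 and 15 without slide 3. Median centring gave 0 in RFIplR minus RFIpl and 23 in RFIneg minus RFIplR. The deposited values gave 20 in RFIneg minus RFIpl and 21 in RFIneg minus RFIplR, and array weights gave 107 and 98. Probes above background on all arrays gave 18 in RFIneg minus RFIpl. Slide as a random block gave 2 in RFIplR minus RFIpl and 98 in RFIneg minus RFIplR, scan day as a block 3 in RFIplR minus RFIpl, and fits of only the groups compared 0 in RFIplR minus RFIpl and 25 in RFIneg minus RFIplR. Limma's unadjusted p was under 0.05 for 2407 to 5190 probes where RFIplR minus RFIpl had 0 calls, and under normexp for 399 probes in RFIneg minus RFIpl and 1038 in RFIneg minus RFIplR. Leaving out each pig gave 22 to 40 calls in RFIneg minus RFIpl, 0 to 7 in RFIplR minus RFIpl and 18 to 68 in RFIneg minus RFIplR. The cause of these shifts was not tested.

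With the replicate number as a block the counts were 28, 0 and 20, and 0 member probes were called. Same-numbered pigs of different groups mostly did not deviate together (r below 0.1 in 15 of 22 pairs, median 0.05, highest 0.33). Of 23 arrays, 4 correlated best with their own number. No pairing by number was seen, but correlations over whole arrays could miss a weak one.

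Of 21 member pairs, 6 passed in the main setting, 12 with median centring, 9 with slide removed as well (where p may be too small), 5 with quantile normalization, 4 without the farthest pigs, and 0 within each scan day, where 4 pairs on the first day and 0 on the second had an unadjusted permutation p under 0.05. Chosen after seeing the data, leaving out slide 3 gave 0 pairs (6 unadjusted) and leaving out RFIplR replicate 8 gave 3. Signal over background limits the CEBPB probe at 360, the KLF9 probes at 174 to 453 and the TSC22D3 probe at 320, each not well above background on 2 or 3 of the 23 arrays.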

Other observations

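Immediate early genes, which switch on within minutes of handling or stress, were measured for 6 of 16 listed genes, and 0 passed the threshold. NR4A3 differed by -1.59 in RFIneg minus RFIplR (limma adjusted p = 0.59), MYC by -0.39 in the same comparison (adjusted p = 0.81), JUN by -0.33 in RFIneg minus RFIpl (adjusted p = 0.84) and FOS by -0.72 in RFIplR minus RFIpl (adjusted p = 0.91). The mean level of the list ran from -0.60 to 3.19 in RFIneg pigs, from 0.19 to 2.75 in RFIplR pigs and from -0.41 to 2.87 in RFIpl pigs, so pigs of 1 group differed far more than the groups did. Of 17 clock genes 4 were measured. In RFIplR minus RFIpl, RORA differed by 0.33 (adjusted p = 0.38), ARNTL by 0.57 (adjusted p = 0.53) and CIART by 0.44 (adjusted p = 0.71), and all 4 had a higher mean in RFIplR.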
